A study of Mus musculus with 12 samples.

Results

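The genes described here encode proteins of the mitochondrial ribosome and of the protein import machinery of the mitochondrial membranes. Membership went by gene symbol, and no measured value entered the rule, which took all genes on the array whose symbol begins with Mrpl (large ribosomal subunit), Mrps (small ribosomal subunit), Timm (translocase of the inner membrane) or Tomm (translocase of the outer membrane). The rule found 81 genes on 106 spotted cDNAs, among 16255 features in all. They were 40 Mrpl, 24 Mrps, 13 Timm and 4 Tomm genes. Of these, 76 had enough values to be tested (39 Mrpl, 21 Mrps, 12 Timm and 4 Tomm), among 14729 features tested. The 5 genes left out, Mrpl11, Mrps11, Mrps24, Mrps35 and Timmdc1, lacked a value on at least 3 of 4 arrays in 1 or more comparisons. Timmdc1 is a complex I assembly factor that shares the prefix, and Tomm34 is a cytosolic co-chaperone. Mrps36 was later assigned to the oxoglutarate dehydrogenase complex, and Mrps30 and Mrps18a sit in the large subunit despite their names.

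Mitochondrial ribosomes translate the few proteins encoded by mitochondrial DNA, all of them components of oxidative phosphorylation. The ribosomal proteins themselves are encoded in the nucleus, made in the cytosol and imported. Nearly all precursors enter through the TOM complex of the outer membrane. From there TIM23 takes those with a cleavable presequence into the matrix, TIM22 inserts carrier proteins into the inner membrane, and the small Tim chaperones escort hydrophobic precursors across the space between the membranes. In the testis, mitochondria change shape and metabolism through meiosis, and those of elongating spermatids are packed into the sperm midpiece.

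Testis RNA of 3 genotypes of male mice on a Castaneus background was compared on 12 two-colour cDNA arrays: Wobbler modifier (wr/mod in the design text, called modifier here), Wobbler (wr/wr) and wildtype. Wobbler is a recessive mutation of Vps54, a subunit of a complex that tethers vesicles returning to the Golgi, and affected males are infertile. No probe carried the name Vps54, and the genotypes were not checked on the arrays. Both channels of an array carried RNA pooled from 3 males, and each pair of genotypes was hybridised on 4 arrays, with the dyes exchanged on replicates 3 and 4. Ages are not given in the labels, and neither the number of separate pools nor the molecular nature of the modifier is stated. Spread between arrays, possibly technical, is thus all that the p-values take into account. In the labelling protocol a pool of 6 control animals is named as reference cDNA, and the channel labels were followed instead.

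Every value below is a log2 ratio, a difference between 2 RNA samples on 1 array and not a level. A positive ratio means more RNA in the first-named genotype. That reading comes from the array titles with Cy5 taken over Cy3, so the direction is likely rather than certain. In whole testis, fewer cells of a type and less RNA per cell cannot be told apart. Each array gave 18325 to 19584 usable spots, and 74 to 76 of the 76 tested genes had a value on each array. Replicate 2 of Wobbler over wildtype had the widest values, with an SD of 1.32 over the tested genes and 1.42 over all features. On the other 11 arrays the SD of the tested genes was between 0.33 and 1.03. Since no level was measured, the testis label could not be checked against marker levels.

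Promoter sequence is one feature the genes share that the choice by name did not use. A pair of motifs was searched on both strands, because the factors that bind them, NRF1 and the ETS-family factor GABPA, are known regulators of nuclear genes for mitochondrial proteins. The windows ran from 250 bases before to 50 bases after each start site in RefSeq on assembly GRCm38.p6, and 73 of the 81 genes had one. The ETS motif CCGGAAG occurred in 30 of the 73 genes (41.1%), against 1436 of 8005 genes on the array (17.9%) and 2683 of 27025 genes with a window (9.93%). The NRF1 core GCGCATGC occurred in 6 of the 73 (8.22%), against 5.17% of genes on the array and 3.05% of all genes with a window. At least 1 motif was present in 33 genes (45.2%), against 22.0% of the genes on the array. The ETS share was 13 of 35 for Mrpl, 10 of 22 for Mrps, 5 of 13 for Timm and 2 of 3 for Tomm genes. These shares describe letters in a window and say nothing of binding.

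The following 3 windows, each on the plus strand and written 5′ to 3′ with matches in capitals, belong to genes described below. Mrpl30 is shown because it was the single gene that passed the test. Its window holds neither motif. It lies at chr1:37890227-37890526.
Mrpl30: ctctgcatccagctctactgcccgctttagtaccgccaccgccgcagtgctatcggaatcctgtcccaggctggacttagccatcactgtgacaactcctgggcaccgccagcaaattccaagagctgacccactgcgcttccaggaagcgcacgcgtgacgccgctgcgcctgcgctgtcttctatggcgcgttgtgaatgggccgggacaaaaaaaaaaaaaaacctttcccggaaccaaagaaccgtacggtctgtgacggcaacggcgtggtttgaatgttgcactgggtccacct
Mrpl9 is shown for its NRF1 core, which is present on both strands in overlapping positions that begin at -28 and -26 from the start site. Its window lies at chr3:94443086-94443385.
Mrpl9: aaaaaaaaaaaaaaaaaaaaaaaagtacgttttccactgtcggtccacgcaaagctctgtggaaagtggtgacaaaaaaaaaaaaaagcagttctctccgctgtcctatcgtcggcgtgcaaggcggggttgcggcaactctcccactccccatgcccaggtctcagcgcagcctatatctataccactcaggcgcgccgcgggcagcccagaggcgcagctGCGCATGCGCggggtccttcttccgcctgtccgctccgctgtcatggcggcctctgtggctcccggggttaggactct
Tomm70a is shown for a pair of ETS matches that begin at -80 and -8, the nearer of them on the minus strand. Its window lies at chr16:57121464-57121763.
Tomm70a: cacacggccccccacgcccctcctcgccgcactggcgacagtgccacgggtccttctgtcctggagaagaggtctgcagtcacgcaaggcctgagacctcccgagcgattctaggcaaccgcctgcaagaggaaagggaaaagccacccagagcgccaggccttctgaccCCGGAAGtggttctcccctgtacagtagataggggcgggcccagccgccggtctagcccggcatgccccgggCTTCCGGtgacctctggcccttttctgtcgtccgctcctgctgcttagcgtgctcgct

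Fitted ratios of tested genes with and without an ETS match are given for description, with no test. In modifier over wildtype their medians were -0.05 (29 genes) and 0.001 (40 genes). In modifier over Wobbler they were -0.04 and 0.09, and in Wobbler over wildtype -0.02 and 0.02. The 81 genes lie on 19 chromosomes, most often on chromosomes 11 (10 genes), 17 (9 genes) and 7 (8 genes).

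The first comparison asked how the genes differed between modifier and wildtype testis. Mitochondrial ribosome and import genes as a group stayed close to equal RNA in both genotypes, and no member passed the test. Their median log2 ratio was -0.03, against 0.01 over all features, and the members' 25th and 75th percentiles were -0.18 and 0.06. Of the 76 members, 34 had a ratio above 0 and 42 below 0. All 76 lay between -0.66 (Mrpl47) and 0.70 (Mrpl58), while 1.39% of all features lay more than 1 log2 unit from 0. The 95% interval of 65 members (85.5%) stayed within 1 log2 unit of 0, against 74.2% of all features. At an adjusted p under 0.05 with limma, 0 of 76 members were called, while 108 of 14729 features were called (0.733%), 5 higher and 103 lower. At an unadjusted p under 0.05 it was 6 members, 1 higher and 5 lower (7.89%), near the 7.33% of all features.

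Among large-subunit genes the smallest p belonged to Mrpl47, a relative of the bacterial protein L29 at the exit of the peptide tunnel. Mrpl47 had log2 ratios of -0.084, -0.482, -1.715 and -0.35 on the 4 modifier over wildtype arrays. All lay below 0, and replicate 3 was far lower than the other arrays. The fit gave -0.66 ± 0.20 (SE, n = 4 arrays, adjusted p = 0.272 with limma). Mrpl20, which binds ribosomal RNA in the large subunit, had -0.108, -0.211, -0.657 and -0.457 on the same arrays. Its ratios were also below 0 throughout, with the dye-exchanged arrays lower, and the fit gave -0.36 ± 0.11 (SE, n = 4, adjusted p = 0.313 with limma). Mrpl15 was at -0.33 ± 0.13 (SE, n = 4) and Mrpl53 at -0.27 ± 0.11 (SE, n = 4), and neither passed. Over the 39 Mrpl genes the median was -0.03.

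Genes with the Mrps prefix had a median of 0.003 over 21 genes. Mrps10, a protein of the head of the small subunit, was the member with the smallest p that lay above 0. Its ratios on the modifier over wildtype arrays were 0.3325, 0.5925, 0.2935 and 0.2975, all above 0 with replicate 2 the highest. The fit gave 0.38 ± 0.12 (SE, n = 4, adjusted p = 0.288 with limma). Its 2 probes disagreed in size, with fitted ratios of 0.06 and 0.70. Mrps15 was at 0.35 ± 0.20, which rests on 1.232 on replicate 3, since the other 3 arrays lay between -0.001 and 0.099. Mrps22 was at -0.20 ± 0.13 and below 0 on all 4 arrays.

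Import genes also lay near 0. The 12 Timm genes had a median of -0.07 and the 4 Tomm genes one of -0.14. Timm8b, a small Tim chaperone, had ratios of -0.576, 0.032, -0.911 and -0.496 on the modifier over wildtype arrays. It was below 0 on 3 of 4 arrays, with a fit of -0.49 ± 0.21 (SE, n = 4, adjusted p = 0.618 with limma). Timm22, the channel protein of TIM22, was at -0.24 ± 0.18, and Timm17b, a channel subunit of TIM23, at -0.15 ± 0.19. Tomm7, a small subunit that modulates the stability of TOM, was at -0.24 ± 0.25, Tomm6 at 0.10 ± 0.22 and Tomm34 at -0.49 ± 1.20. The interval of Tomm34 is so wide that its ratio cannot be placed.

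**Figure D1:**
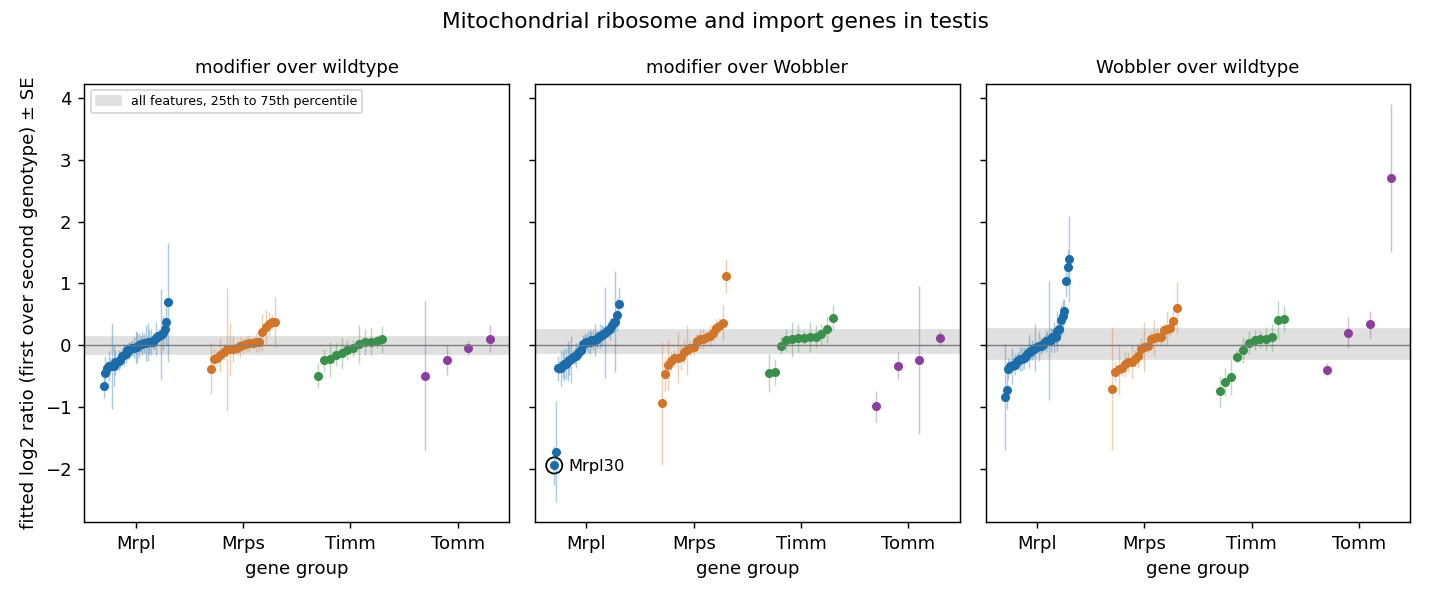
Fitted log2 ratios with standard errors for the 76 tested genes, sorted within each of 4 gene groups, in modifier over wildtype, modifier over Wobbler and Wobbler over wildtype. The grey band spans the 25th to the 75th percentile of all 14729 features, and Mrpl30 in modifier over Wobbler (circled, -1.94) is the only member that passed the test.

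The second comparison set modifier against Wobbler testis directly. One member, Mrpl30, passed the test and was lower in modifier testis; the other 75 did not pass. The members' median log2 ratio was 0.06, against 0.08 over all features, and the members' 25th and 75th percentiles were -0.23 and 0.15. Ratios were above 0 for 42 members and below 0 for 34. More than 1 log2 unit from 0 were 3 members (3.95%), against 3.23% of all features. With limma and an adjusted p under 0.05, the call of 1 member (lower) stood beside 61 calls over all features (0.414%), 17 higher and 44 lower. At an unadjusted p under 0.05 it was 9 members (11.8%), 6 higher and 3 lower, against 11.5% of all features.

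Mrpl30, a large-subunit protein related to bacterial L30, was measured by 1 probe. Its log2 ratios on the 4 modifier over Wobbler arrays were -2.451, -1.453, -2.479 and -1.379. All 4 lay far below 0 in both dye orientations, and each orientation held 1 array about 1 log2 unit lower than the other. The fit gave -1.94 ± 0.31 (SE, n = 4), a 3.84-fold lower ratio in modifier testis with a 95% interval from -2.63 to -1.25 and an adjusted p of 0.0335 with limma. How bright its spots were is not known from the values used here. The call was lost under 13 of 24 alternative settings, among them leaving out any 1 of the 4 modifier over Wobbler arrays, with adjusted p between 0.0683 and 0.170. Across those 4 fits the ratio stayed between -2.22 and -1.64. Calls over all features in modifier over Wobbler fell in the same fits as well. They were 7, 0, 23 and 25 without replicates 1 to 4 in turn, against 61 in the main fit.

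Measured through wildtype, the fitted ratio of Mrpl30 was above 0, but it was not told apart from 0. On the modifier over wildtype arrays Mrpl30 had 0.382, -0.327, -0.27 and 0.422, 2 above and 2 below 0, with a fit of 0.05 ± 0.31 (SE, n = 4). On the Wobbler over wildtype arrays it had -1.981, -0.936, -0.191 and 0.232, with the 2 unexchanged arrays clearly lower than the 2 exchanged ones, and a fit of -0.72 ± 0.31 (SE, n = 4, adjusted p = 0.307 with limma). Taken around the loop, these give an indirect modifier over Wobbler ratio of 0.77 ± 0.44 (SE), beside the direct -1.94. The indirect ratio did not differ from 0 (unadjusted p = 0.110, adjusted p = 0.521 with limma), so its sign is open. The indirect minus the direct ratio was 2.71 ± 0.54 (SE), the largest such gap relative to its error among the members (unadjusted p = 0.0005, adjusted p = 0.349 with limma). A model with only 2 genotype coefficients for all 12 arrays put Mrpl30 at -1.04 in modifier over Wobbler (adjusted p = 0.320 with limma).

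**Figure D2:**
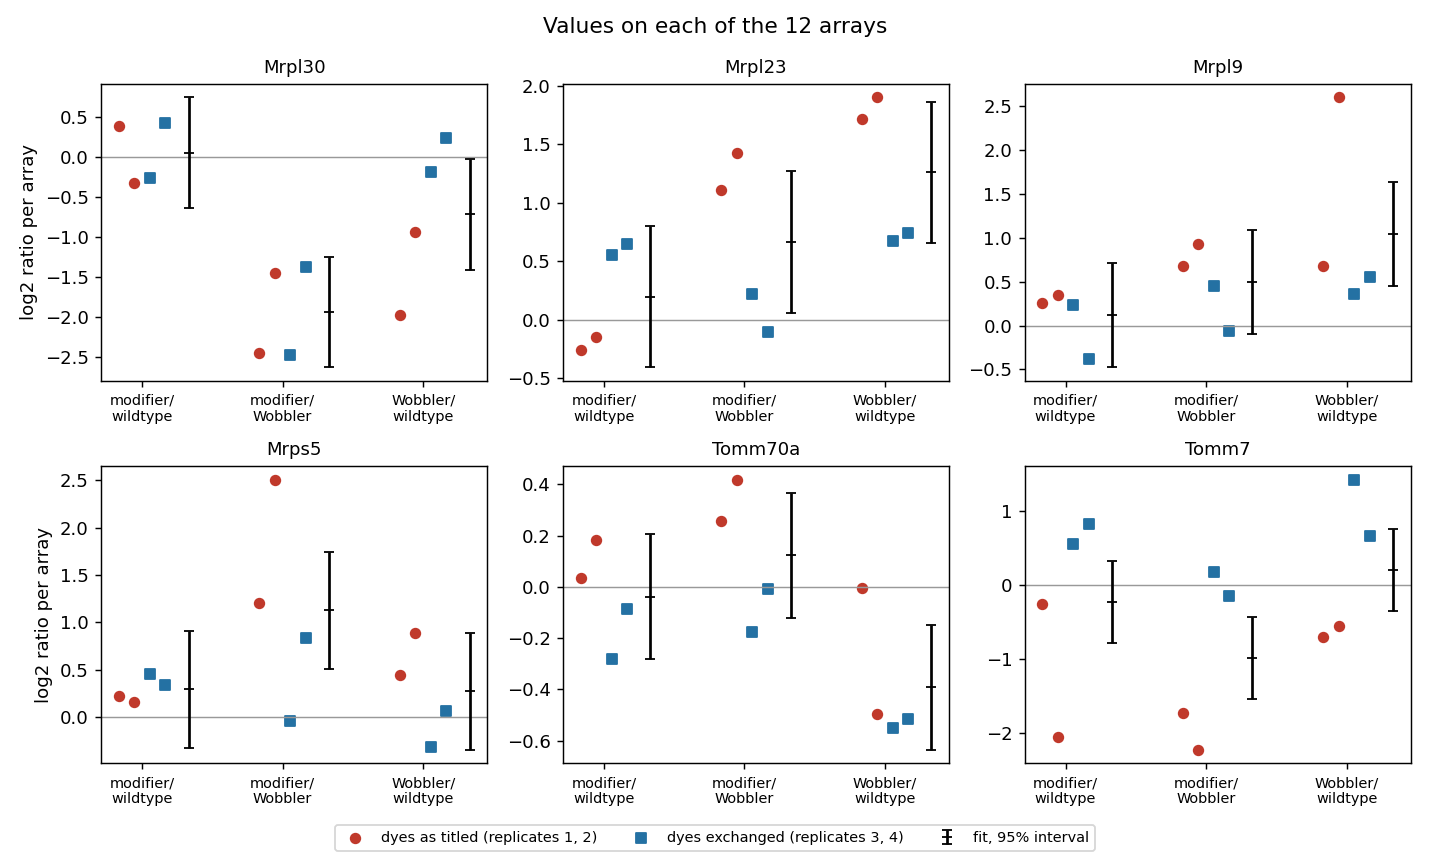
Log2 ratios on each of the 12 arrays for Mrpl30, Mrpl23, Mrpl9, Mrps5, Tomm70a and Tomm7, by comparison, with dye-exchanged arrays as squares and the fit with its 95% interval beside them. The y axes differ between panels. Mrpl30 lies at or below -1.379 on all 4 modifier over Wobbler arrays, and Tomm7 separates by dye orientation in all 3 comparisons.

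Beside Mrpl30, the large-subunit genes with the smallest p in modifier over Wobbler were Mrpl53 at -0.36 ± 0.11 (SE, n = 4, adjusted p = 0.212 with limma) and Mrpl36 at 0.38 ± 0.12 (SE, n = 4, adjusted p = 0.273 with limma). Mrpl53 had -0.143, -0.137, -0.553 and -0.625, below 0 on all arrays. Mrpl36, related to bacterial L36, had 0.608, 0.659, -0.016 and 0.276, above 0 on 3 of 4. The median over Mrpl genes was 0.05. Mrpl58, a peptidyl-tRNA hydrolase built into the large subunit, had a fit nearly as low as Mrpl30 but did not pass. Its arrays read 2.014, -3.925, -3.001 and -1.953 and its fit was -1.72 ± 0.82 (SE, n = 4).

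Mrps5, a small-subunit protein with a bacterial relative, had the highest fitted ratio of all members in modifier over Wobbler. Its arrays read 1.21, 2.51, -0.05 and 0.83. The unexchanged arrays were higher than the exchanged ones, and 1 exchanged array was just below 0. The fit gave 1.12 ± 0.28 (SE, n = 4, adjusted p = 0.145 with limma). Mrps10 was at 0.32 ± 0.12 and Mrps23 at 0.27 ± 0.16, both above 0 on all 4 arrays. The median over the Mrps genes was -0.03.

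Timm genes had a median of 0.12 in modifier over Wobbler, with 9 of 12 above 0. Over all features the median was 0.08, with 9073 of 14729 above 0. Timm29, a subunit of TIM22, had 1.01, 0.059, 0.33 and 0.396. It was above 0 on every array, replicate 1 being the highest, and fitted 0.45 ± 0.21 (SE, n = 4, adjusted p = 0.447 with limma). Timm8b was at -0.43 ± 0.21. Timm50, the TIM23 receptor for presequences, was at -0.44 ± 0.30, but its 2 probes fitted 0.28 and -1.17, the widest gap between probes of any member in any comparison.

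Tomm genes had a median of -0.28 in modifier over Wobbler, below 0 for 3 of 4, beside 5652 of 14729 features. Tomm7, averaged from 3 probes with missing values, read -1.737, -2.233, 0.1755 and -0.1533. The unexchanged arrays were far below the exchanged ones, and the fit of -0.99 ± 0.25 (SE, n = 4) did not pass (adjusted p = 0.147 with limma). The same split by dye was present in all comparisons, with a mean of -1.26 on replicates 1 and 2 and 0.58 on replicates 3 and 4, and a fitted dye term of -0.92 ± 0.14 (SE). Tomm6 was at -0.33 ± 0.22 with probes at -0.98 and 0.31. Tomm70a, the receptor for carrier precursors, was at 0.12 ± 0.11.

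The third comparison asked how the genes differed between Wobbler and wildtype testis. No member passed the test, and the group's median of -0.01 was close to that of all features, -0.007. The members' 25th and 75th percentiles were -0.25 and 0.13, with 36 ratios above 0 and 40 below. More than 1 log2 unit from 0 were 4 members (5.26%), against 5.94% of all features. The 95% interval of 61 members (80.3%) stayed within 1 log2 unit of 0, against 66.1% of all features. Over all features 45 of 14729 were called at an adjusted p under 0.05 with limma (0.306%), 18 higher and 27 lower, beside 0 of 76 members. At an unadjusted p under 0.05 it was 16 members (21.1%), 7 higher and 9 lower, against 15.7% of all features.

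Mrpl23, which sits near the exit of the peptide tunnel, came closest to a call in Wobbler over wildtype. Its arrays read 1.719, 1.904, 0.673 and 0.746. All were above 0, and the unexchanged arrays were clearly higher than the exchanged ones. The fit gave 1.26 ± 0.27 (SE, n = 4, 95% interval 0.65 to 1.87, adjusted p = 0.111 with limma). Mrpl9 had 0.679, 2.598, 0.354 and 0.554, again all above 0, with replicate 2 far above the others. Its fit was 1.05 ± 0.27 (SE, n = 4, adjusted p = 0.134 with limma). Mrpl3 was at -0.32 ± 0.10 (SE, n = 4, adjusted p = 0.210 with limma) and below 0 on all 4 arrays. Mrpl16 was at 1.39 ± 0.70, from a single array at 5.191 and 3 arrays between -0.188 and 0.525. The median over Mrpl genes was -0.03.

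Mrps9 and Mrps34, both of the small subunit, were below 0 on all 4 Wobbler over wildtype arrays. Mrps9 read -0.099, -0.484, -0.679 and -0.232 and fitted -0.37 ± 0.12 (SE, n = 4, adjusted p = 0.210 with limma). Mrps34 read -0.626, -0.202, -0.633 and -0.232 and fitted -0.42 ± 0.16 (SE, n = 4, adjusted p = 0.251 with limma). Mrps23 was at 0.39 ± 0.16 and above 0 on all 4. The median over Mrps genes was -0.03. Mrps36 had the widest spread of this group, with values from -6.459 to 3.114.

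In Wobbler over wildtype the 12 Timm genes had a median of 0.06, with 7 above 0. The 4 Tomm genes had one of 0.27, with 3 above 0. Of the 5 tested small Tim chaperones 4 had ratios below 0, with a median of -0.18, and none passed. Over all features 7484 of 14729 lay below 0. Timm10b is a small Tim as well but was counted with the TIM22 complex it joins, and with it 5 of 6 lay below 0. It read -1.385, 0.115, -1.026 and -0.675 and fitted -0.74 ± 0.25 (SE, n = 4, adjusted p = 0.214 with limma). Timm8a1 read -1.476, -0.872, -0.034 and 0.018, so that its fit of -0.59 ± 0.22 (SE, n = 4) came from the unexchanged arrays. Timm29 was at 0.43 ± 0.21. The 4 genes of TIM23 (Timm17a, Timm17b, Timm44 and Timm50) lay between 0.04 and 0.41.

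Tomm70a had the smallest p of the import genes in Wobbler over wildtype. Its arrays read -0.0035, -0.496, -0.5515 and -0.5165. Replicate 1 was at 0, and the other 3 were close together near -0.5. The fit gave -0.39 ± 0.11 (SE, n = 4, adjusted p = 0.160 with limma). Its probes fitted -0.66 and -0.12, and with each probe treated as a feature of its own the lower one passed (adjusted p = 0.0246 with limma). In that fit 87 probes were called over the whole array. Tomm34 had the highest fitted ratio, 2.71 ± 1.20 (SE, n = 4), from arrays at -1.018, 7.904, 3.559 and 0.375. Its probes, each with missing arrays, fitted 1.498 and 1.844, and leaving out 1 array in turn gave 0.73 to 4.08 for the gene. Tomm6 was at 0.34 ± 0.22.

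**Figure D3:**
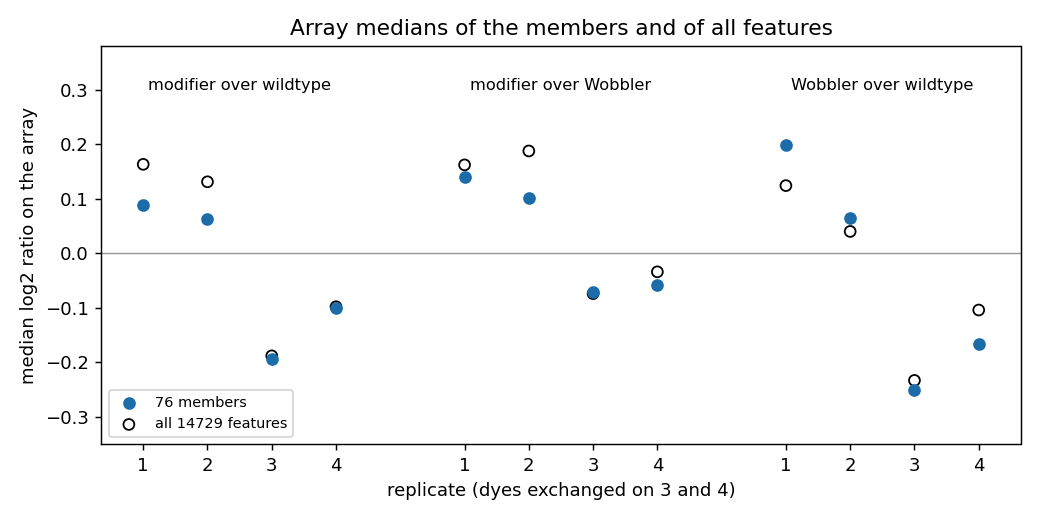
Median log2 ratio on each of the 12 arrays for the 76 tested genes (filled points) and for all 14729 features (open points), by comparison and replicate. Both medians lie above 0 on replicates 1 and 2 and below 0 on replicates 3 and 4, and the members' medians run from -0.251 to 0.199.

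On each array the members' median lay close to that of all features. Members minus all features averaged -0.037 ± 0.039 in modifier over wildtype, -0.032 ± 0.038 in modifier over Wobbler and 0.005 ± 0.059 in Wobbler over wildtype (SD, n = 4 arrays each). The medians of both sets were positive on all unexchanged and negative on all exchanged arrays, and the median fitted dye term was 0.154 for the members and 0.150 for all features. The spread between arrays was slightly smaller for the members, a difference that was not tested. Their median SD over the 4 arrays was 0.26 in modifier over wildtype, 0.35 in modifier over Wobbler and 0.46 in Wobbler over wildtype, against 0.30, 0.40 and 0.49 for all features. The sign was the same on all 4 arrays for 14, 14 and 11 of the 76 members in these comparisons (18.4%, 18.4% and 14.5%), and for 19.2%, 17.8% and 17.6% of all features.

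Subsets by origin or by complex also had medians near 0. The 36 tested subunits with a bacterial relative had medians of -0.03 in modifier over wildtype, 0.04 in modifier over Wobbler and 0.01 in Wobbler over wildtype. The 22 subunits found only in mitochondrial ribosomes had medians of 0.0003, 0.07 and -0.09 in the same order of comparisons. For the 4 genes of TIM23 they were -0.07, 0.07 and 0.09, and for the 3 of TIM22 -0.13, 0.14 and 0.11. Between probes of the same gene the fit differed by a median of 0.154, 0.264 and 0.363 over the 20 members with at least 2 fitted probes. The sign was shared by all probes of a gene for 9, 10 and 9 of those 20.

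**Figure D4:**
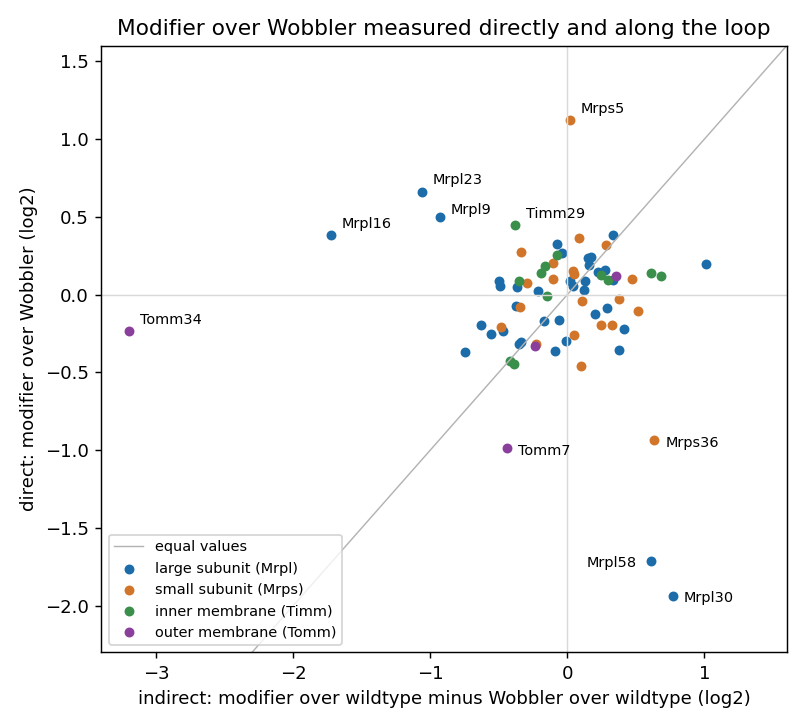
Modifier over Wobbler log2 ratios of the 76 tested genes measured directly (y axis) against the indirect ratio, modifier over wildtype minus Wobbler over wildtype (x axis). Points on the grey line would be equal, and Mrpl30 lies farthest to the lower right, at 0.77 indirect and -1.94 direct.

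Since all 3 pairs were hybridised, the direct and the indirect modifier over Wobbler ratio of each gene could be compared. No member differed at an adjusted p under 0.05 with limma, where 4 features did (0.0272%). At an unadjusted p under 0.05 it was 5 of 76 members (6.58%), against 6.95% of all features. These were Mrpl30, then Mrpl23 with an indirect minus direct gap of -1.73 ± 0.47 (SE), Mrpl9 with -1.43 ± 0.46 (SE), Mrps5 with -1.10 ± 0.48 (SE) and Timm29 with -0.83 ± 0.36 (SE). Mrpl23 had a direct ratio of 0.66 and an indirect one of -1.06. Mrpl30 and Mrps5 had the lowest and the highest direct ratio of the 76 members.

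The difference between both comparisons against wildtype was tested as well, although they share wildtype RNA. No member passed, beside 85 features (0.577%). The unadjusted count was 6 of 76 members (7.89%), against 12.5% of all features. Mrpl20 had the smallest p, with -0.36 in modifier over wildtype and 0.27 in Wobbler over wildtype, a difference of -0.63 ± 0.16 (SE, adjusted p = 0.146 with limma). Mrpl47 differed by -0.75 ± 0.28 (SE), from -0.66 in modifier over wildtype and 0.09 in Wobbler over wildtype.

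Other genes of mitochondrial translation and import were described from lists chosen beside the members. None of their genes passed in any comparison. The 9 tested translation factors had medians of -0.11 in modifier over wildtype, 0.14 in modifier over Wobbler and 0.20 in Wobbler over wildtype. Lrpprc, which stabilises mitochondrial mRNAs, was at 0.72 ± 0.21 (SE, n = 3, adjusted p = 0.181 with limma) and Tufm, the elongation factor, at -0.37 ± 0.14 (SE, n = 4) in Wobbler over wildtype. Mtif3, an initiation factor, was at -0.27 in modifier over wildtype, and Taco1, an activator of cytochrome oxidase translation, at 0.26 in modifier over Wobbler.

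The 12 assembly factors had medians of 0.02, -0.01 and 0.03 in the same order of comparisons. Nsun4, an RNA methyltransferase of ribosome assembly, was at -0.68 ± 0.22 (SE, n = 4, adjusted p = 0.277 with limma) in modifier over Wobbler and at 0.51 ± 0.22 (SE, n = 4) in Wobbler over wildtype, both of which hold Wobbler RNA. Mrm1, another RNA methyltransferase, was at 0.38 in modifier over Wobbler, Mpv17l2 at 0.74 in modifier over wildtype and Mtg1, a GTPase, at 1.04 in Wobbler over wildtype. The 5 tested genes from a list of ribosome-related proteins with other names had medians of -0.17, -0.08 and 0.05. Dap3, a GTP-binding protein of the small subunit, was at -0.41 in modifier over Wobbler and 0.44 in Wobbler over wildtype. Slirp was at -0.38 and Chchd1 at -0.21 in modifier over wildtype, and Ptcd3 was at 0.15 in modifier over Wobbler and -0.09 in Wobbler over wildtype.

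Import partners, 18 genes, had medians of -0.14, 0.006 and 0.04. In modifier over wildtype 14 of 18 lay below 0, beside 6996 of 14729 features. It was 9 of 18 in modifier over Wobbler and 8 of 18 in Wobbler over wildtype. Dnajc15 and Dnajc19, J-domain proteins of the import motor, were at -0.37 ± 0.11 (SE, n = 4, adjusted p = 0.289 with limma) and -0.38 ± 0.13 (SE, n = 4) in modifier over wildtype. Pam16, which regulates that motor, was at 0.78 ± 0.22 (SE, n = 4, adjusted p = 0.166 with limma) and Samm50, of the machinery that inserts outer membrane barrels, at 0.44 ± 0.18 (SE, n = 4) in Wobbler over wildtype. Hspa9, the chaperone that drives the motor, was at 0.27 in modifier over Wobbler.

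Mitochondrial genes outside translation and import served for comparison. The 14 citrate cycle enzymes had medians of -0.05, 0.15 and -0.05. Sucla2 and Pdha2, the testis form of a pyruvate dehydrogenase subunit, were both at -0.27 in modifier over wildtype. Idh3g was at 0.70 and Ogdh at 0.58 in modifier over Wobbler, and Fh1 was at 1.43 and Suclg2 at -0.53 in Wobbler over wildtype. The 5 channels and carriers had medians of -0.24, -0.14 and 0.05. Slc25a3, the phosphate carrier, was at -0.47 ± 0.12 (SE, n = 4, adjusted p = 0.152 with limma) in modifier over wildtype and at -0.42 ± 0.12 (SE, n = 4, adjusted p = 0.188 with limma) in modifier over Wobbler.

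Several markers of late spermatids and Leydig cells were lower in modifier testis. Late spermatid markers (19 tested of 20 listed) had a median of -0.86 in modifier over wildtype, with 19 below 0 and 8 called lower. In modifier over Wobbler it was -0.59, with 18 below 0 and 5 called lower. In Wobbler over wildtype it was -0.09, with 10 below 0 and 0 called. Over all features 0.733%, 0.414% and 0.306% were called in these comparisons. Leydig markers (5 tested) had medians of -0.77 with 2 called lower, -0.50 with 1 called lower and -0.02 with 0 called. All 5 lay below 0 in both modifier comparisons, and 3 did in Wobbler over wildtype. Sertoli markers (9 tested) had medians of -0.12, -0.03 and 0.01 with 0 called. Among 5 macrophage and 5 spermatocyte markers 1 each was called lower in modifier over wildtype, with medians of -0.12 and 0.07. In modifier over Wobbler their medians were -0.18 and -0.03, and in Wobbler over wildtype 0.24 and 0.23, with 0 called. The part of these shifts in the ratios of the mitochondrial genes was not tested.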

How the data were processed

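Testis RNA of 3 genotypes was measured on 12 two-colour arrays. Each spot of an array has a log2 ratio in the deposited table. How these were scanned, background-corrected and normalized is not given in the sources used here. A repeated value log2 of 100000 above each array's additive shift (22 to 165 spots) was read as a code and treated as missing. Replicates 3 and 4 were multiplied by -1, since the loop of 3 comparisons then closed better than with no array turned. Direct and indirect modifier over Wobbler ratios correlated at 0.178 over 14975 probes, against 0.0104 with no array turned. Turning replicates 1 and 2 instead would give the same 0.178. The correlation thus cannot set the direction, which was taken from the array titles as Cy5 over Cy3. A correlation of 0.178 is low, so direct ratios were only weakly reproduced through wildtype. The platform annotation gave 14030 of 20355 probes a single symbol, 5 several and 6320 none. Probes of a symbol were averaged per array.

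Features with values on 3 or more of the 4 arrays in each comparison were fitted with limma 3.58.1 (R 4.3.3, lmFit, eBayes) on all 12 arrays, with a mean for each comparison and a shared dye term. P-values were adjusted by Benjamini-Hochberg over 14729 features, at 0.05. An SE is that of this fit, n counts arrays, and their number limits the precision. After the mean of each comparison was removed, same-numbered arrays hardly deviated together (correlations from -0.025 to 0.079), and the main fit did not pair them. Low correlations cannot show whether same-numbered arrays shared RNA. The code was tested on simulated data.

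The members, the lists and the rule for named genes were chosen with earlier results of these data known. The rule took every called member, the 3 with the smallest p per comparison and prefix, the 3 with the widest gap between probes and the 2 with the smallest p of each related list. Mrpl58, Mrpl16, Mrps36, Slc25a3 and other genes beyond it were named after their values were seen. The closing section gives the alternatives.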

Additional observations from a re-analysis of the deposited data

Results flagged for a closer look

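Single arrays stood apart in 8 of the 84 groups of 4 arrays examined by Dixon's criterion for 4 values. Chance gives about 1 such array in 20 groups. In modifier over wildtype, Mrps10 read 0.5925 on replicate 2 (nearest array 0.3325), Mrps15 read 1.232 on replicate 3 (nearest 0.099), Timm22 read 0.02 on replicate 1 (nearest -0.305) and Mrpl9 read -0.384 on replicate 4 (nearest 0.235). In Wobbler over wildtype, Timm29 read 1.275 on replicate 1 (nearest 0.201), Tomm70a read -0.0035 on replicate 1 (nearest -0.496) and Mrpl9 read 2.598 on replicate 2 (nearest 0.679). In modifier over Wobbler, Mrps34 read -0.566 on replicate 4 (nearest 0.221). These are log2 ratios, and none of the genes passed the test in the comparison named.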

How the results depend on the processing

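Each comparison was refitted under 24 alternatives, 22 for tests between comparisons. The call of Mrpl30 in modifier over Wobbler held in 11. The number of members called there was 0 without the dye term, with the replicate block, with each comparison fitted alone, with 2 genotype coefficients for the loop and with no array multiplied by -1. For Mrpl30 these gave adjusted p of 0.0621, 0.0689, 0.549, 0.320 and 0.997, and ratios from -1.94 to -0.01. With 1 array left out the number of members called was between 0 and 1. It was 0 without any 1 of the 4 modifier over Wobbler arrays, without replicate 1, 2 or 4 of modifier over wildtype or without replicate 3 of Wobbler over wildtype, with adjusted p for Mrpl30 between 0.0514 and 0.170. In modifier over wildtype, 2 members were called after scaling arrays to equal spread (Mrpl20 -0.46, adjusted p 0.0324, and Mrps10 0.48, adjusted p 0.0434), or 2.63% of members against 3.28% of all features. With array weights it was 4 (Mrpl15, Mrpl20, Mrpl53 and Mrps10), or 5.26% against 4.81%. With each probe a feature, 1 member, Tomm70a, was called in Wobbler over wildtype by 1 of its 2 probes, beside 87 calls over all probes. The array holds 106 probes of members and 20355 probes in all, of which not all were tested. For the difference of both comparisons against wildtype, scaling gave 1 of 76 members, Mrpl20 (-0.70, adjusted p 0.0344). The share over all features was not counted for that fit. The members' median in modifier over wildtype was 0.14 with no array multiplied by -1, and 71 of 72 medians moved by less than the spread between arrays. No ratio of a named member reversed a call.

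Over all features the calls were few and varied widely. With arrays scaled they were 483 in modifier over wildtype and 23 in Wobbler over wildtype. Without the dye term they were 46 in modifier over wildtype, 7 in modifier over Wobbler and 24 in Wobbler over wildtype. In the same order they were 58, 24 and 22 with the replicate block, 4, 0 and 0 with each comparison alone, 165, 110 and 87 with probes separate, 224, 207 and 0 with 2 genotype coefficients and 0, 0 and 0 with no array multiplied by -1. Array weights gave 709 in modifier over wildtype and 22 in Wobbler over wildtype. With 1 array left out the counts ran from 20 to 154 in modifier over wildtype, 0 to 128 in modifier over Wobbler and 18 to 54 in Wobbler over wildtype. The causes of these changes were not tested. Signal over background could not be examined. Leaving out spots at whole-number ratios was tried, and whether such spots are dim was not tested.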
